A study of Homo sapiens with 4 samples.

Results

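Box H/ACA small nucleolar RNAs and small Cajal body RNAs were followed across 4 arrays of MCF12A, an established line of human breast epithelial cells that form no tumours. Members were the genes whose symbol starts with SNORA (small nucleolar RNAs of the H/ACA type) or SCARNA (small Cajal body RNAs). Each needed a probe set that names it alone, taken as the one with the highest mean, and an intensity of at least 155 on 1 of the 4 arrays, the median of all values that name 1 gene. Of 77 such genes on the array (61 SNORA and 16 SCARNA), 45 met that level (34 SNORA and 11 SCARNA), out of 10373 genes kept in all. The level itself therefore chose the members, and it is given here as a description only. Just inside it were SNORA38, with a highest intensity of 159, and SCARNA22, at 227. Just outside were SCARNA8, at 151, and SNORA33, at 145. A member bright only after exposure could enter through that exposure, which was so for SNORA38, SNORA55, SCARNA9 and SCARNA9L, whereas 27 SNORA and 8 SCARNA were bright on every array.

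The study exposed monolayers for 1 week to ethanol at 25 mM or to acetaldehyde at 2.5 mM. Acetaldehyde is what cells make first when they oxidise ethanol. Each exposure had its own unexposed culture, called control 1 for ethanol and control 2 for acetaldehyde. All cultures shared 1 cell line and a medium that held cholera toxin, bovine insulin, hydrocortisone and epidermal growth factor besides horse serum. RNA was extracted with a column kit, labelled with biotin and hybridised to Affymetrix Human Gene 1.0 ST arrays. There was 1 array for each of the 4 cultures, so the matched differences carry no replicate check and no test.

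The median intensity over 33297 probe sets ran from 90.2 to 113.8. On the log2 scale, the sorted values of control 1 and the ethanol array were 0.040 apart on average, and those of control 2 and the acetaldehyde array 0.027. Arrays from separate experiments were 0.27 to 0.28 apart. Control 2 against control 1, and every statement below that sets an exposed array beside both controls, carries this gap. The epithelial keratin KRT5 had an intensity of 9757 to 12169. The basal keratin KRT14 was at 5075 in control 1 and 3212 with ethanol, then 1587 in control 2 and 822 with acetaldehyde. EPCAM was at 0.70 with ethanol and 0.35 with acetaldehyde, and at -1.21 in control 2 against control 1. The cadherin CDH1 was at -0.32, -0.42 and -1.33. The luminal keratins KRT8 and KRT18 were at 0.75 and 0.63 with ethanol and 0.22 and 0.12 with acetaldehyde. KRT19, a dimmer luminal keratin, went the other way, at -0.15 with ethanol, -0.54 with acetaldehyde and 0.84 in control 2 against control 1. All 8 breast epithelial markers on the array were kept, with a summed intensity of 22210 to 30181, and the hormone receptors ESR1 and PGR were not. Of 12 leukocyte, endothelial, fibroblast and adipocyte markers on the array, COL1A1 and DCN reached the filter level. The summed intensity of all 12 was 783 in control 1 and 703 with ethanol, then 1201 in control 2 and 1150 with acetaldehyde, and the part of either marker list in the results was not tested. In such bulk RNA, fewer cells of a kind and less RNA per cell cannot be told apart.

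H/ACA RNAs fold into hairpins that base-pair with a target RNA and place the pseudouridine synthase dyskerin (DKC1) on a chosen uridine. SNORA members act mainly on ribosomal RNA in the nucleolus. Small Cajal body RNAs act on spliceosomal snRNAs, and they may carry H/ACA boxes, C/D boxes, which guide ribose methylation through fibrillarin, or both. Most human members are cut out of introns of a host gene, so their production is tied to that gene's transcription and splicing. The label H/ACA did not cover every member: SCARNA7, SCARNA9, its close copy SCARNA9L and SCARNA17 are known as box C/D RNAs, and SCARNA5, SCARNA6, SCARNA10 and SCARNA12 as mixed ones.

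Host genes of these RNAs often begin with a C followed by pyrimidines, the start of the terminal oligopyrimidine transcripts that also encode ribosomal proteins. Starts are shown for the hosts of 3 members that lay far from their control and of 2 with a tract at the start. Each line gives 15 bases before and 15 from the annotated start, from RefSeq on GRCh38.p14. Capitals mark every run of a C followed by at least 4 C or T, searched on the transcribed strand alone.
CEP295 (contains SCARNA9, chr11:93661667-93661696, plus strand): ggCTCTCCCgcaggcgcagaaacggctgct
EIF1AX (contains SCARNA9L, chrX:20141824-20141853, minus strand): gcaaagagtcgcggcgccatttgctgccgc
NOL11 (contains SNORA38B, chr17:67717921-67717950, plus strand): gcgcggccgtacttaggtttgctcaaaatg
NCAPD2 (contains SCARNA10, chr12:6494087-6494116, plus strand): gcacgcgtgttttttCCTTTTCatttcagc
RPL27A (contains SNORA3A and SNORA3B, chr11:8682777-8682806, plus strand): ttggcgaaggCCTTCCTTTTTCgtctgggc
Of 30 hosts with a RefSeq promoter, 11 had such a C and 4 pyrimidines exactly at the annotated start, or 36.7%, against 4.07% of all 35116 promoters. Within the 30 bases shown, a run was present in 63.3% of hosts and 39.0% of all promoters. The 12 members in hosts that start with the tract had median log2 differences of -0.061 with ethanol and 0.19 with acetaldehyde. The 22 members in the other 19 hosts had medians of -0.046 and 0.29. A match describes the letters of this window and is no measured start site. Hosts taken from several containing genes, TOMM20 and MATR3 with the tract included, are less certain.

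With acetaldehyde both classes lay mostly above control 2, whereas with ethanol SNORA lay mostly below control 1 and SCARNA mostly above it. The SNORA direction with ethanol depended on leaving out dim probe sets: without the filter the median was 0.030. Of the 27 SNORA under the filter level, 20 were above control 1 (74.1%), against 34.6% of all genes under that level. The median log2 difference with acetaldehyde was 0.20 over 34 SNORA and 0.42 over 11 SCARNA, against 0.0031 over all 10373 genes. With ethanol the medians were -0.16 for SNORA and 0.14 for SCARNA, against 0.051 over all genes. The SCARNA ethanol median was 0.067 without SCARNA9 and SCARNA9L, 0.038 after joint quantile normalization and 0.055 without the filter. Above control 2 with acetaldehyde were 27 of 34 SNORA and 11 of 11 SCARNA, against 50.7% of all genes, and 7 SNORA lay below it, against 49.3%. Above control 1 with ethanol were 11 of 34 SNORA and 8 of 11 SCARNA, against 57.8% of all genes, and below it 23 SNORA and 3 SCARNA, against 42.2%. The filter favours members that are high on some array, so the same is given for those bright on all 4 arrays. The acetaldehyde and ethanol medians of these 27 SNORA were 0.21 and -0.21, and those of these 8 SCARNA 0.39 and 0.10. All 8180 genes bright on all arrays had medians of 0.011 and 0.070. Above control with acetaldehyde were 22 of these SNORA and 8 of these SCARNA, against 52.8% of those genes. With ethanol 7 and 6 were above control, against 61.4%. Of the 45 members, 20 lay below control 1 with ethanol and above control 2 with acetaldehyde (44.4%), a pattern of 15.3% of all genes.

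**Figure D1:**
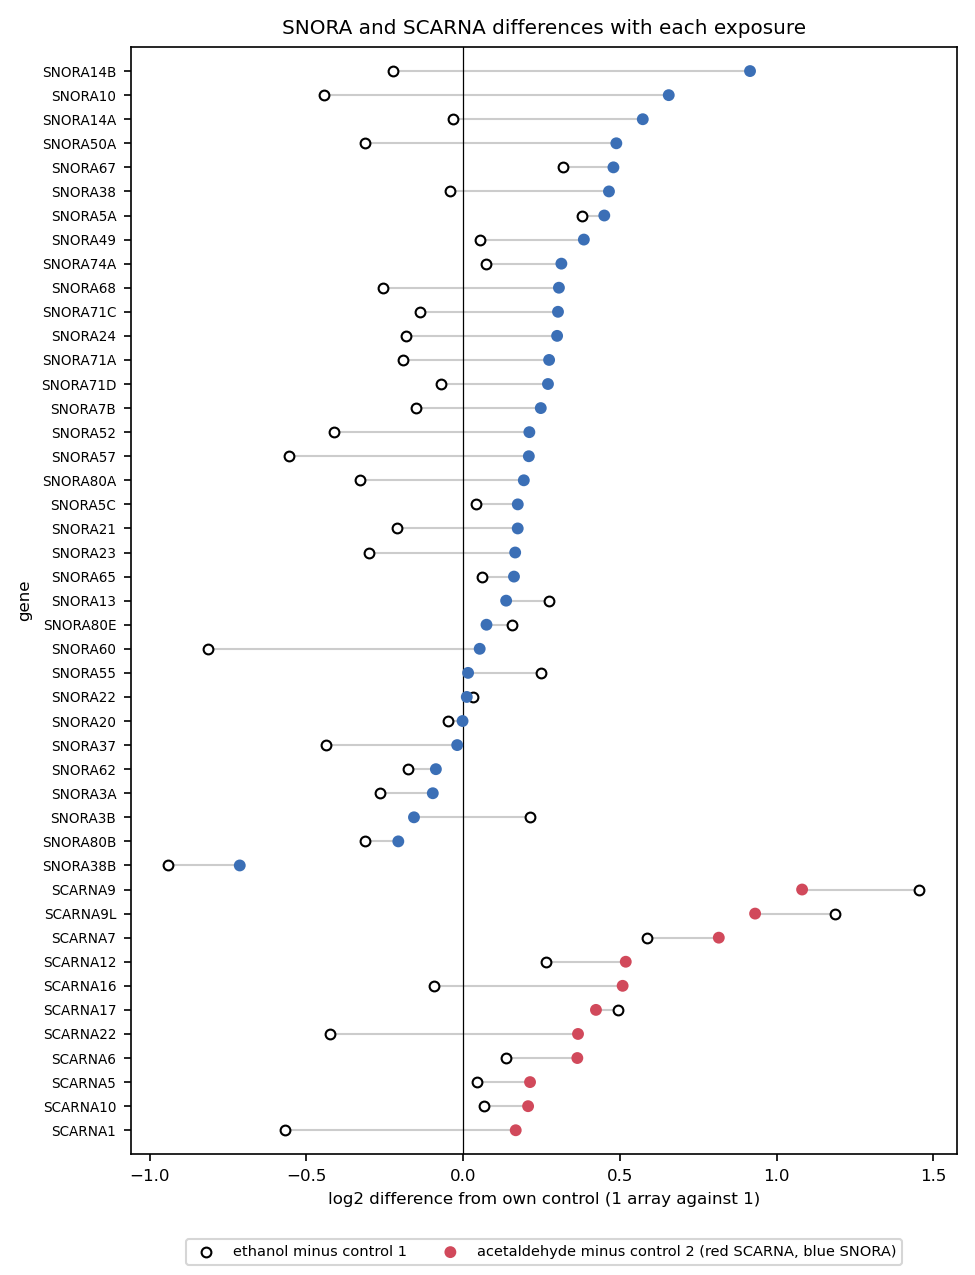
Log2 difference of each kept SNORA and SCARNA gene from its own control, with ethanol (open circles) and acetaldehyde (filled circles), joined by a line; 1 array a side, so no error bars. All 11 SCARNA are above 0 with acetaldehyde, and SNORA38B is the lowest gene of either class with both exposures.

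**Figure D2:**
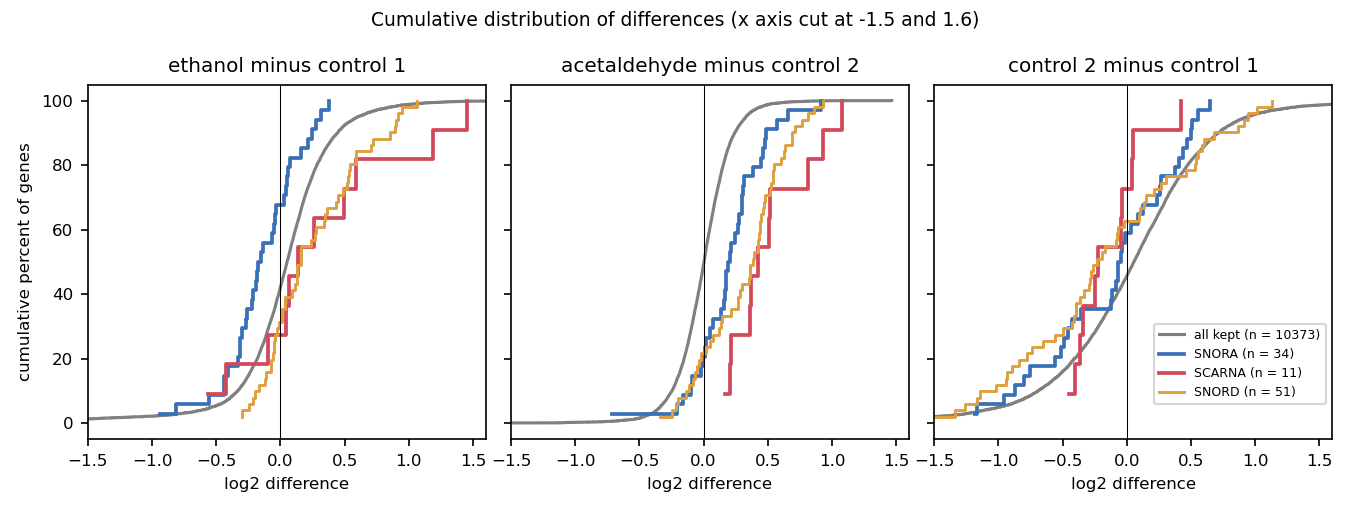
Cumulative percent of genes against log2 difference for 10373 kept genes, 34 SNORA, 11 SCARNA and 51 box C/D SNORD genes in the 3 comparisons. The x axis leaves out genes beyond its ends. In the middle panel the medians of SNORA (0.20), SCARNA (0.42) and SNORD (0.39) lie right of that of all genes (0.0031), and in the left panel that of SNORA (-0.16) lies left of it.

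By size, few members moved far. With acetaldehyde 5 members were at least 1.5-fold higher, namely SCARNA9, SCARNA9L, SCARNA7, SNORA14B and SNORA10, a step made by 0.742% of all genes. SNORA38B was the 1 member at least 1.5-fold lower, against 0.974% of all genes. With ethanol SCARNA9, SCARNA9L and SCARNA7 were at least 1.5-fold higher, against 5.44%, and SNORA38B and SNORA60 at least 1.5-fold lower, against 4.22%. The same 3 SCARNA were thus past 1.5-fold with both exposures, which 0.27% of all genes were. SCARNA7 only just passed with ethanol, at 0.59, and fell short at 0.51 after joint quantile normalization and at 0.58 with an offset of 16. At 2-fold, SCARNA9 and SCARNA9L were higher with ethanol, against 1.17% of all genes, and 0 members were lower, against 2.11%. With acetaldehyde SCARNA9 alone was 2-fold higher, against 0.0289% (3 genes), and 0 members were lower, against 0.212%. With both exposures 2 genes were 2-fold higher, 0.0193% of all, SCARNA9 among them. SCARNA9 and SCARNA9L were kept through their exposed arrays alone, so these shares are no support for them. With acetaldehyde SCARNA9 was under 2-fold with an offset of 16 (0.98) and as the mean of its probe sets (0.95). The 2 exposure comparisons share no array.

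Among the small Cajal body RNAs, SCARNA9 lay farthest from its controls. It is the tandem box C/D RNA that guides ribose methylation of U2 snRNA. Its intensity was 100.04 in control 1 and 274 with ethanol, then 103 in control 2 and 219 with acetaldehyde. On this probe set both exposed arrays were above both controls, which were alike, at 2.74-fold with ethanol and 2.12-fold with acetaldehyde. It stood in place 20 from the top of all kept genes with ethanol and in place 2 with acetaldehyde. Both controls lay below the filter level of 155, so its folds are less certain than those of brighter RNAs. Its other probe set, dimmer, was higher by 0.67 with ethanol and 0.82 with acetaldehyde, but its controls were not alike, at 70.2 in control 1 and 45.8 in control 2.

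SCARNA9L, a close copy of SCARNA9 inside EIF1AX, cannot be fully told apart from it by short probes. Its intensity was 138 in control 1 and 314 with ethanol, then 105 in control 2 and 199.5 with acetaldehyde, or 2.28-fold and 1.91-fold. Again both exposed arrays were above both controls. Its second probe set gave log2 differences of 0.85 and 0.36.

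SCARNA7, a box C/D guide for U1 snRNA, was bright on all arrays. Its intensity was 923 in control 1 and 1386 with ethanol, then 675 in control 2 and 1188 with acetaldehyde, with log2 differences of 0.59 and 0.82. SCARNA17, a box C/D guide for U4 snRNA, was at 567, 799, 485 and 651 in the same order, or 1.41-fold and 1.34-fold. The exposed arrays of both RNAs were above both controls, and the controls differed by less than either exposed array did from its own.

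The mixed RNAs were closer to their controls. SCARNA12, which carries both kinds of box and acts on U5 snRNA, was at 2838 in control 1 and 3408 with ethanol, then 2209 in control 2 and 3165 with acetaldehyde. It was above its own control in both experiments, by 0.26 and 0.52 on the log2 scale. SCARNA6, SCARNA5 and SCARNA10 differed by 0.044 to 0.14 with ethanol and by 0.21 to 0.36 with acetaldehyde.

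The H/ACA members SCARNA1, SCARNA16 and SCARNA22 went opposite ways in the 2 experiments. SCARNA1, a guide for U2 snRNA, was at 276 in control 1 and 186 with ethanol, then 218 in control 2 and 245 with acetaldehyde. It was 1.48-fold lower with ethanol and 1.12-fold higher with acetaldehyde. SCARNA22 was at 180, 134, 176 and 227 in the same order, 1.34-fold lower and 1.29-fold higher. SCARNA16, a guide for U1 snRNA, was at 247, 231, 332 and 473, with differences of -0.094 and 0.51. For these 3 RNAs the ethanol array was below both controls.

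Grouped by guide type, a split made by hand from general knowledge after the values were seen, the ethanol differences of the 11 kept SCARNA did not overlap. They ran from 0.49 to 1.46 for 4 box C/D RNAs, from 0.044 to 0.26 for 4 mixed RNAs and from -0.57 to -0.094 for 3 H/ACA RNAs. The quartiles over all genes were -0.13 and 0.23. No such split was made over all genes, and the groups are small, so the ranges are a description alone. The box C/D group holds SCARNA9 and SCARNA9L, near copies kept through their exposed arrays alone, so their place is no support. Without them it is SCARNA17 at 0.49 and SCARNA7 at 0.59. Over all 8 H/ACA SCARNA on the array, 5 of them under the filter level, the range was -0.57 to 0.12, which overlaps the mixed RNAs through SCARNA23 at 0.12. With acetaldehyde the ranges were 0.42 to 1.08, 0.21 to 0.52 and 0.17 to 0.51, which overlapped. Control 2 minus control 1 gave -0.45 to 0.048, -0.36 to 0.042 and -0.34 to 0.43, which overlapped. The medians there were -0.31, -0.14 and -0.036, in the reverse order to those with ethanol. With all 37 kept RNAs of H/ACA type pooled, SNORA and SCARNA together, the medians were -0.18 with ethanol and 0.21 with acetaldehyde. Guides outside the SCARNA did not keep to the ethanol ranges above. The pooled H/ACA RNAs ran from -0.94 to 0.38 with ethanol, with 11 above control 1, against 57.8% of all genes. Of 51 kept box C/D SNORD genes, 16 were below control 1 with ethanol, against 42.2% of all genes, the lowest at -0.30.

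**Figure D3:**
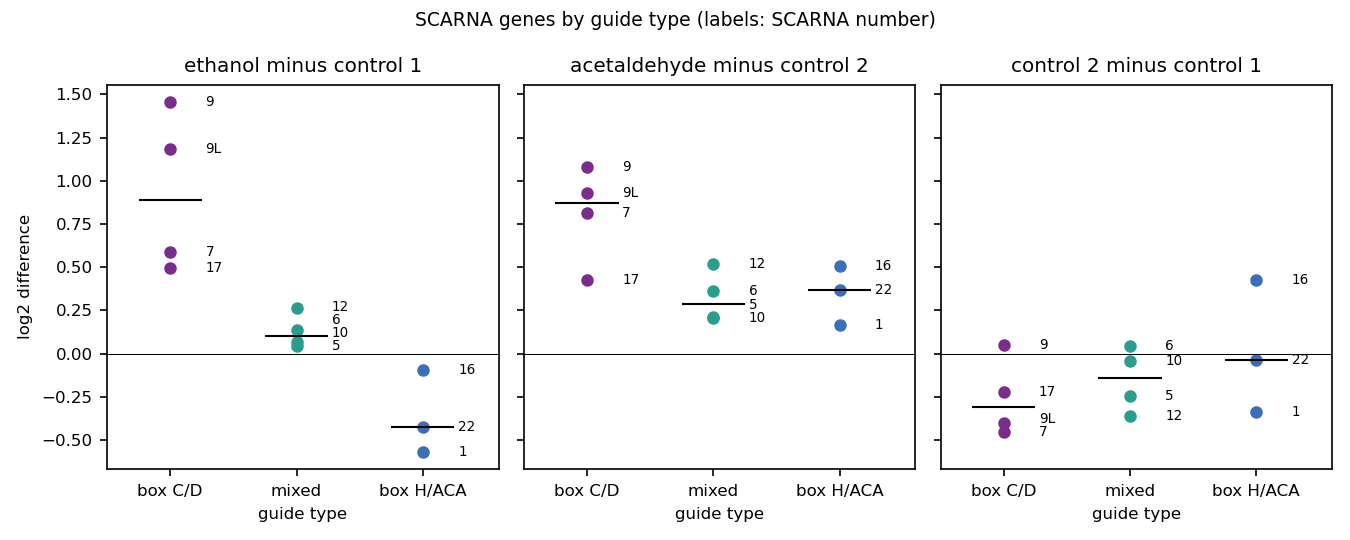
Log2 differences of the 11 kept SCARNA genes by guide type in the 3 comparisons; each point is 1 gene, labelled by its SCARNA number, and bars are medians. With ethanol the box C/D genes are at 0.49 or above and the H/ACA genes at -0.094 or below.

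Among SNORA, the highest with acetaldehyde was SNORA14B, a guide for small-subunit ribosomal RNA. Its intensity was 193 in control 1 and 165 with ethanol, then 227 in control 2 and 428 with acetaldehyde, or 1.89-fold higher with acetaldehyde. The acetaldehyde array stood apart from the other 3. Its close copy SNORA14A, at 193, 189, 115 and 171, was 1.49-fold above control 2 but below control 1, so the acetaldehyde value lay between the controls.

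SNORA10, a ribosomal RNA guide inside the ribosomal protein gene RPS2, was at 727 in control 1 and 535 with ethanol, then 1068 in control 2 and 1682 with acetaldehyde. It was 1.36-fold lower with ethanol and 1.58-fold higher with acetaldehyde. The controls themselves differed by 1.47-fold. A second probe set of SNORA10 had identical values on all arrays and adds no measurement.

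The next SNORA with acetaldehyde were SNORA14A at 0.57 on the log2 scale, SNORA50A at 0.49, SNORA67 at 0.48 and SNORA38 at 0.47. SNORA38 was kept through its acetaldehyde array alone, so its place here is no support. SNORA50A was at 488 in control 1 and 392 with ethanol, then 347 in control 2 and 486 with acetaldehyde. It fell short of control 1 with acetaldehyde and lay between the controls with both exposures. SNORA67, a small-subunit ribosomal RNA guide, was at 297, 370, 304 and 424, above both controls with either exposure.

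SNORA38B was the member lowest with both exposures. It had an intensity of 2347 in control 1 and 1223 with ethanol, then 1347 in control 2 and 822 with acetaldehyde, 1.92-fold and 1.64-fold lower. Both exposed arrays were below both controls, although control 2 was itself 1.74-fold below control 1. Its relative SNORA38 was at 121, 117, 115 and 159. SNORA38 was dim and reached the filter level on the acetaldehyde array alone, so whether these copies moved alike cannot be told. The other low SNORA with acetaldehyde were SNORA80B at -0.21 and SNORA3B at -0.16, near their control.

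With ethanol the lowest SNORA after SNORA38B were SNORA60 and SNORA57. SNORA60, inside SNHG11, was at 347 in control 1 and 197 with ethanol, then 321 in control 2 and 333 with acetaldehyde, 1.76-fold lower with ethanol alone. Here the ethanol array stood apart from 3 arrays between 321 and 347. A dimmer probe set that names SNORA60 together with SNHG11 was at 0.059 with ethanol. SNORA57 was at 649, 442, 630.4 and 729, 1.47-fold lower with ethanol, with controls within 1.03-fold of each other.

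The highest SNORA with ethanol were SNORA5A, a small-subunit ribosomal RNA guide, SNORA67 and SNORA13. SNORA5A was at 539 in control 1 and 701 with ethanol, then 400.0 in control 2 and 547 with acetaldehyde, 1.30-fold and 1.37-fold higher. SNORA67 was 1.25-fold higher and SNORA13 1.21-fold higher. SNORA5A and SNORA5C lie in the same host, TBRG4, and SNORA5C was higher by 0.041 with ethanol and 0.17 with acetaldehyde. Families of near copies share probe sequence, so values of SNORA3A and SNORA3B, SNORA71A, SNORA71C and SNORA71D, and SNORA80A, SNORA80B and SNORA80E are less certain. In the SNORA71 family the acetaldehyde differences were 0.27 to 0.30 and the ethanol ones -0.19 to -0.069. The SNORA80 family was mixed, at -0.33, -0.31 and 0.16 with ethanol and 0.19, -0.21 and 0.074 with acetaldehyde.

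**Figure D4:**
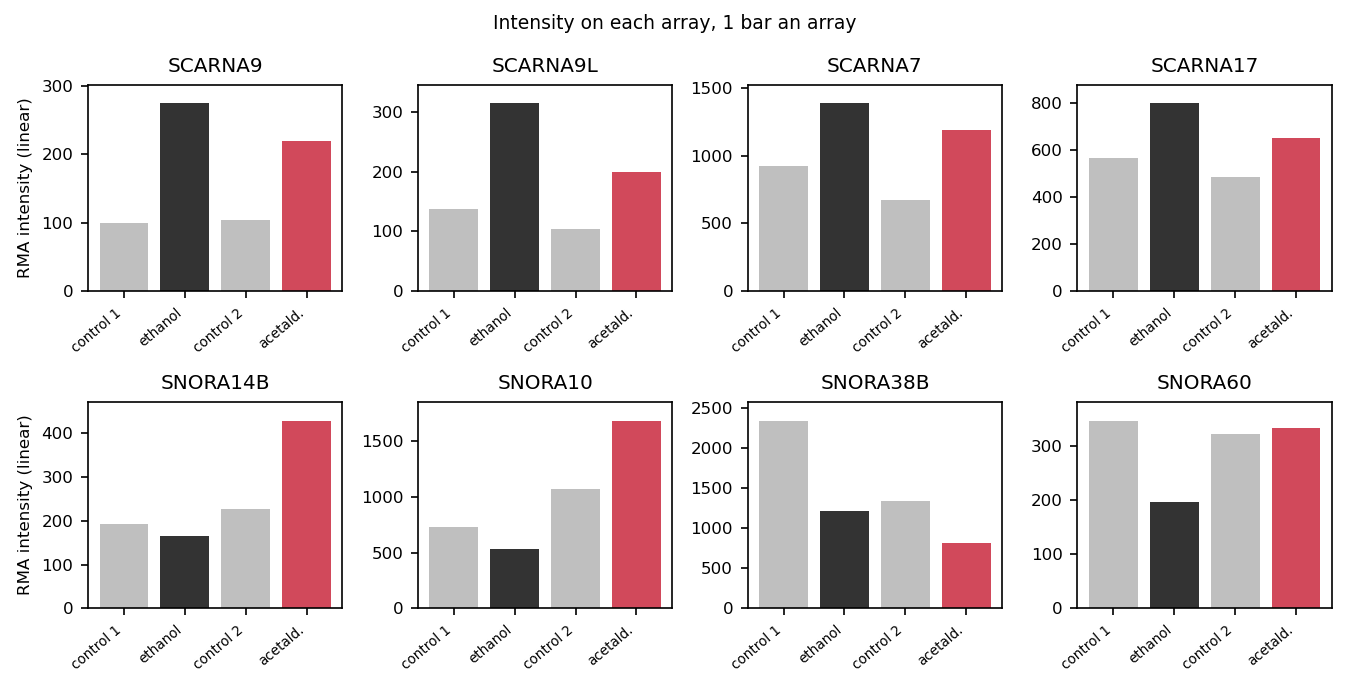
RMA intensity on a linear scale for 8 members, 1 bar an array: controls grey, ethanol black, acetaldehyde red. For the 4 box C/D SCARNA of the upper row both exposed bars exceed both grey bars, whereas SNORA60 is low with ethanol alone, at 197.

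Across members the ethanol and acetaldehyde differences, which share no array, had a Pearson r of 0.88 and a Spearman rho of 0.80 over 11 SCARNA. Without SCARNA9 and SCARNA9L, near copies kept through their exposed arrays alone, r was 0.64 and rho 0.63 over 9. Over 34 SNORA these were 0.29 and 0.13, and over all 10373 genes 0.39 and 0.35. They are descriptions across genes, which share each array and are not independent replicates.

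Set against both controls, 9 of 11 SCARNA and 18 of 34 SNORA were above both with acetaldehyde, against 30.1% of all genes. With ethanol 8 of 11 SCARNA were above both, against 35.2% of all genes, and 6 of 34 SNORA. Below both controls with ethanol were 3 SCARNA and 13 SNORA (38.2%), against 28.1% of all genes. Below both with acetaldehyde were 4 SNORA and 0 SCARNA, against 24.9%. SNORA38, SNORA55, SCARNA9 and SCARNA9L, kept through exposed arrays alone, were above both controls with acetaldehyde, and all but SNORA38 with ethanol. The filter itself placed an exposed array of each above both controls, so their part in these counts is no support. These places set levels across the experiments and carry the gap between them.

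Without any exposure the members also differed between cultures. Control 2 minus control 1 had a median of -0.055 over SNORA and -0.22 over SCARNA, against 0.057 over all genes. Above control 1 were 14 of 34 SNORA and 3 of 11 SCARNA, against 54.5% of all genes, and below it were 28 members, against 45.5%. At least 1.5-fold lower in control 2 were 6 SNORA, against 12.9% of all genes, and 1 SNORA was 1.5-fold higher, against 14.9%. At 2-fold 2 members were lower, against 4.85%, and 0 higher, against 4.25%. SNORA20, a small-subunit ribosomal RNA guide inside the chaperonin gene TCP1, was the lowest at 1686 in control 1 and 744 in control 2. Its intensity was 1629 with ethanol and 743 with acetaldehyde, so it differed between experiments and hardly within them. SNORA24, in SNHG8, was 2.24-fold lower in control 2, at 1105 against 2480. SNORA62, in RPSA, was 1.57-fold higher there, at 182 against 116. SNORA13 followed among the lowest, at -0.95, and SNORA10 and SNORA80E among the highest, at 0.55 and 0.51. Control 1 enters both this comparison and that of ethanol, so their values are not independent.

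Each of the 45 kept members lay inside at least 1 annotated gene of GRCh38.p14, and for 43 a single host was taken. Where several genes contained a member, the host was the only protein-coding one, which need not be the gene it is cut from. That was so for SCARNA16, SNORA13, SNORA14B, SNORA55, SNORA67, SNORA71D and SNORA74A, whose hosts are less certain. For 8 members the host was a protein-coding ribosomal protein gene, 7 such genes in all. The table used gives no strand. For 32 members, in 28 hosts, the host was also kept on the array. With acetaldehyde the hosts of 24 SNORA had a median difference of 0.066 while these SNORA had 0.18. The hosts of 8 SCARNA had a median of 0.11 while these SCARNA had 0.44, and 7 of the 8 lay above their host. With ethanol the SNORA hosts had a median of 0.058 and their SNORA -0.16, and 6 of 24 SNORA lay above their host. The SCARNA and their hosts were level with ethanol, at medians of 0.10 and 0.11, with 4 of 8 SCARNA above their host. No host of these members was 1.5-fold from its control with either exposure. The range was -0.24 to 0.49 with ethanol and -0.12 to 0.55 with acetaldehyde. Of all genes, 5.44% were 1.5-fold higher and 4.22% lower with ethanol, and 0.742% and 0.974% with acetaldehyde.

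Among members far from their control the host was nearer to its own. SNORA10 was at -0.44 with ethanol and 0.66 with acetaldehyde, while its host RPS2 was at -0.035 and -0.042. SNORA14B was at 0.92 with acetaldehyde. TOMM20, a mitochondrial import receptor and the protein-coding gene taken as its host, was at -0.089. SNORA38B was at -0.94 and -0.71, while its host NOL11, a nucleolar protein of ribosome synthesis, was at 0.18 and 0.25. SCARNA7 was at 0.59 and 0.82, and the nuclear import receptor KPNA4 at 0.032 and 0.27. SCARNA5 and SCARNA6 were close to their shared host ATG16L1, an autophagy gene at 0.12 and 0.27, with 0.044 and 0.14 for ethanol and 0.21 and 0.36 for acetaldehyde. Over the 24 SNORA pairs, 21 hosts in all, the Pearson r of SNORA and host differences was -0.14 with ethanol and -0.50 with acetaldehyde, with rho of -0.064 and -0.54. These are descriptions across genes on shared arrays.

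**Figure D5:**
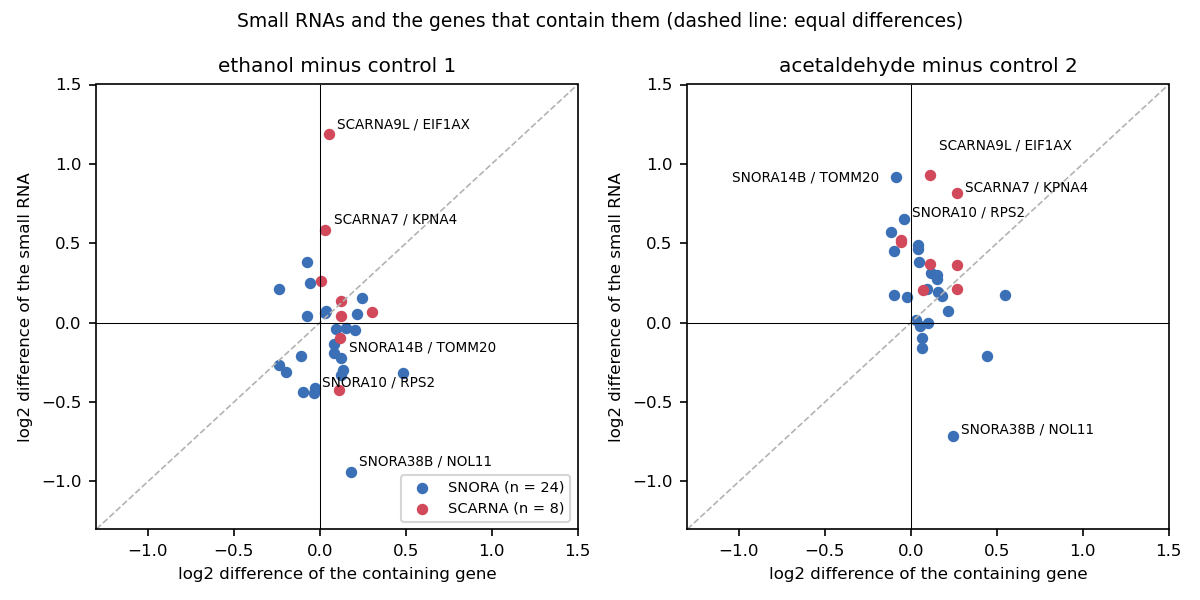
Log2 difference of each small RNA against that of the gene containing it, for 24 SNORA (blue) and 8 SCARNA (red), with each exposure; the dashed line marks equal differences. Hosts stay between -0.24 and 0.55, while the small RNAs range more widely, down to SNORA38B at -0.94.

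The mRNAs of the H/ACA core proteins were split around control with ethanol and above it with acetaldehyde. DKC1, the pseudouridine synthase, was at 612 in control 1 and 661 with ethanol, then 578 in control 2 and 608 with acetaldehyde. Its partners NHP2 and GAR1 were higher by 0.33 and 0.29 with acetaldehyde, and NOP10 by 0.12. With ethanol the 4 core genes had a median of 0.012, against 0.051 over all genes, with 2 above control 1, against 57.8%. With acetaldehyde the median was 0.21, against 0.0031 and an upper quartile of 0.12 over all genes. All 4 were above control 2, against 50.7%. Of 4 assembly factors, SHQ1, a chaperone of dyskerin, was at 0.29 and 0.26, and NAF1 at 0.22 and -0.12. Of 4 genes for maturation of the RNA end, the deadenylase TOE1 was at 0.34 and 0.033, PARN at 0.25 and 0.055, and the poly(A) polymerase TENT4B at -0.055 and 0.26.

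No gene of these 3 lists reached 1.5-fold with either exposure. Such steps higher and lower were made by 5.44% and 4.22% of all genes with ethanol, and 0.742% and 0.974% with acetaldehyde. In lists this short, 0 is near those shares. Of 6 kept Cajal body genes, 5 were above control with each exposure, against 57.8% of all genes with ethanol and 50.7% with acetaldehyde, with medians of 0.15 and 0.090. COIL, coilin, the scaffold of the body, was highest at 0.28 and 0.30. WRAP53, which carries small Cajal body RNAs to the body, was at 0.051 and 0.080. The telomerase RNA TERC, itself an H/ACA RNA, was at 982 in control 1 and 991 with ethanol, then 590.5 in control 2 and 731 with acetaldehyde. It was thus level with control 1 and 0.31 above control 2. The 10 nucleolar and RNA polymerase I genes had medians of 0.058 and 0.096, with 0 past 1.5-fold, again near the shares over all genes.

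Other classes of short RNA are given for comparison. The 51 kept box C/D SNORD genes had a median of 0.39 with acetaldehyde and 0.16 with ethanol, and 40 and 35 of them were above their control, against 50.7% and 57.8% of all genes. At least 1.5-fold higher were 10 SNORD with acetaldehyde, against 0.742% of all genes, and 10 with ethanol, against 5.44%. With either exposure 0 were 1.5-fold lower, against 0.974% and 4.22%. For the 8 RNU and RNVU spliceosomal RNA genes the acetaldehyde median was 0.16 and the ethanol median -0.050, and 1 of them was 1.5-fold higher with acetaldehyde. RMRP, the RNA of the MRP ribonuclease, was at 0.29 with acetaldehyde and -0.020 with ethanol, and RPPH1, the RNA of ribonuclease P, at 0.21 and -0.036.

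One fit used all 4 arrays, setting both exposed against both control arrays with the experiment as a block. In limma's moderated test over 10373 genes, with Benjamini-Hochberg adjustment at 0.05, 0 of 45 members and 0% of all genes passed. At an unadjusted p under 0.05 there were 8 members (17.8%), against 9.87% of all genes. They were SCARNA9, SCARNA9L, SCARNA7, SCARNA17, SCARNA12, SNORA5A and SNORA67, which were higher, and SNORA38B, which was lower. The filter let in SCARNA9 and SCARNA9L, near copies, through their exposed arrays alone. Their p-values and their part in this share are therefore no support. SCARNA9 had a mean log2 difference of 1.27 in this limma fit, with an adjusted p of 0.49, higher in 2 of 2 pairs. The fit leaves 1 residual degree of freedom and treats ethanol and acetaldehyde as repeats of one exposure, which they are not.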

How the data were processed

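For each array the authors deposited a linear intensity of every probe set, made with RMA per the submitters' processing notes. The sources used here do not give the software, its version or whether pairs were normalized together. Log2 was taken with no offset. Of 33297 probe sets, the platform annotation named 1 gene for 19460 and several for 1754, and 12083 were unnamed here. Probe sets with several genes were left out, the highest mean was kept per gene, and the filter left 10373 of 18417 genes. All 77 member gene identifiers matched RefSeq GRCh38.p14, used for names and containing genes. The planned same-strand hosts became containing genes, strand not being in that table. Differences are 1 array against 1, described by fold (1.5) and median. Members, lists and the rule for named genes were chosen with earlier results of these data known. Named genes were the extremes of each comparison and class, genes at the filter level, and near copies. The linear fit used limma 3.58.1 in R 4.3.3, checked on simulated data. Alternatives were normalization, filter, probe set, offset, threshold, control, block and trend. Python 3.11.15 and matplotlib 3.10.9 drew the figures. Nothing in the labels describes replicate cultures, so no p-value measures the spread between replicate cultures. Those of the blocked fit rest on how far the ethanol and acetaldehyde differences of a gene disagree, moderated over all genes. The number of arrays limits precision.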

Additional observations from a re-analysis of the deposited data

Results flagged for a closer look

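The SNORA median lay on opposite sides of its controls in the 2 experiments, at -0.16 with ethanol and 0.20 with acetaldehyde. Without the dim filter the ethanol median was 0.030 and the acetaldehyde median 0.17, on the same side. Named members did so singly, each by at least 1.2-fold. SNORA10 was at -0.44 with ethanol and 0.66 with acetaldehyde, SNORA50A at -0.31 and 0.49, and SCARNA22 at -0.43 and 0.37. With 1 array a side, none of these differences between exposures was tested.

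Probe sets that name several genes, one of them SNORA or SCARNA, were outside the comparisons. The 21 bright ones of 28 had a median of 0.24 with acetaldehyde, above control 2 for 17 of them, against 50.7% of all kept genes. A pair of them, naming SNORA59A and SNORA59B, had identical values on all arrays and is a single measurement. Those that also name a protein-coding gene, such as RPL10, cannot tell the small RNA from its mRNA.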

How the results depend on the processing

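Each matched comparison holds 1 array a side, so no array could be left out. In the fit that pairs exposed and control arrays of both experiments, limma passed 0 members with the experiment block and 0 with no replicate block. With no block 3 of 45 members had an unadjusted p under 0.05, and 85 of all 10373 genes. Of the medians, that of SNORA with ethanol turned to 0.030 and that of SNORA between controls to 0.0999 without the dim filter, where the SCARNA median between controls moved to -0.039. Against the other experiment's control the SCARNA ethanol median was 0.29, and it was 0.038 after joint quantile normalization. Members 1.5-fold higher with ethanol numbered 2 after joint quantile normalization, centring or an offset of 16. Counts past 1.5-fold moved more. They describe the members alone, since shares over all genes were not taken at most of these settings. Joint quantile normalization gave 10 members lower in control 2, and centring gave 4 lower with ethanol. Without the dim filter there were, of 77 members, 6 higher with ethanol, 8 higher with acetaldehyde, and 11 higher and 11 lower in control 2. Of the 35 members bright on all 4 arrays, 1, 3 and 0 were higher with ethanol, with acetaldehyde and in control 2. Of the 8180 genes bright on all arrays, 388, 41 and 916 were. An offset of 16 gave 0 higher in control 2, and probe sets with several genes gave 2. Against the other control there were 11 higher and 6 lower with ethanol and 5 lower with acetaldehyde. At 2-fold there were 0 lower with ethanol, 1 higher and 0 lower with acetaldehyde, and 0 higher and 2 lower in control 2. The shares over all genes at 2-fold are given above. At 1.2-fold there were 8 higher and 13 lower with ethanol, 22 higher with acetaldehyde, and 10 higher and 16 lower in control 2. No share over all genes was taken at 1.2-fold, so these counts are no result about the members. Beyond fewer or more genes, arrays or a lower fold, the cause was not tested. Dim values, such as those of SCARNA9 in both controls, limit the folds.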

Other observations

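The probe sets that name a small RNA together with its host or another gene mostly hold RNAs not counted above, apart from SNORA60 and SNORA33. SNORA73A, a small nucleolar RNA of pre-ribosomal RNA processing that shares its probe set with its host SNHG3, was at 4386 in control 1 and 3226 with ethanol, then 4406 in control 2 and 6589 with acetaldehyde. It was below both controls with ethanol and above both with acetaldehyde. The probe set of SNORA40 and its host TAF1D was higher by 0.74 with acetaldehyde, and that of SNORA71B and SNHG17 by 0.56. In SNHG12 the probe sets of neighbouring RNAs differed, with SNORA61 at 0.72 and SNORA16A at -0.73 with ethanol. Over the 21 bright probe sets the ethanol median was -0.0037, against 0.051 over all kept genes, with 10 above control 1, against 57.8%.

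Under the filter level were 32 SNORA and SCARNA genes. The 27 SNORA among them had medians of 0.11 with ethanol, 0.091 with acetaldehyde and 0.35 for control 2 minus control 1. All 8044 genes under the level had -0.088, -0.062 and 0.37. SNORA75, at 64.5 in control 1 and 103 with ethanol, then 57.5 in control 2 and 109 with acetaldehyde, was above both controls with either exposure.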
